A study of Mus musculus with 20 samples.

Results

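Cholesterol is built in the liver from acetyl-CoA, and the first arm of that route runs through mevalonate to squalene and its epoxide. The mRNAs of 9 enzymes of this arm, Acat2, Hmgcs1, Mvk, Pmvk, Mvd, Idi1, Fdps, Fdft1 and Sqle, were taken by symbol from a table of read counts for 29915 genes. All 9 were found, and all 9 were among the 13894 genes that passed a filter on low counts. The reductase step between Hmgcs1 and Mvk is not analysed here. The counts came from livers of male mice on regular chow with 12 h of light and 12 h of dark. Hepatic expression of a Prox1 protein with the K556R substitution, in which a lysine that can carry SUMO is replaced, was switched on through Cre in mice aged 8 weeks, with liver collection after 11 more weeks at Zeitgeber times 15 to 17. Prox1 is a homeodomain transcription factor and SUMO a small protein that is attached to lysines of other proteins. The 4 groups were fasted and refed livers of wild type and of K556R mice, with 5 libraries each. The sample titles call the genotypes Ctrl and Cre, so K556R and the presence of Cre cannot be told apart. Libraries are named by repeat number and batch, such as 1_b1. The labels name 2 batches, of which batch 2 gave 3 of the K556R refed libraries and 1 of each other group. The labels do not say whether repeats are separate mice, so p-values measure the spread between these libraries.

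The arm starts with Acat2, the cytosolic thiolase that joins acetyl-CoA units, and Hmgcs1, the cytosolic HMG-CoA synthase. Mvk and Pmvk phosphorylate mevalonate and its phosphate, Mvd decarboxylates the product to isopentenyl diphosphate, and Idi1 interconverts the isoprene isomers. Fdps joins them to farnesyl diphosphate, from which isoprenoid side branches also start, Fdft1 condenses farnesyl diphosphate to squalene, and Sqle adds the oxygen that opens the way to sterols. The genes of this route are textbook targets of SREBP-2, the product of Srebf2. This factor is held in the endoplasmic reticulum by Scap and Insig proteins when sterol is plentiful and is released when sterol falls. Liver sterol synthesis is known to be lower in fasting and higher after feeding.

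Total counts per library ranged from 33746054 to 50647297, and no repeats of a group agreed within the sampling noise of their counts. Principal component 1 (61.6% of variance) separated the libraries by feeding state. Component 2, with 10.4%, set apart K556R fasted 1_b1 at −26.4 and K556R refed 1_b1 at −37.8, while all other libraries lay between −1.80 and 7.08. Summed over 7 hepatocyte markers the level was 102000 to 147200 CPM (counts relative to library size after TMM scaling), and none of them was at 0 in a library. In fasted livers Prox1 averaged 185 ± 38.5 CPM (wild type) and 104 ± 15.7 CPM (K556R), with refed averages of 110 ± 15.7 and 75.5 ± 12.1 CPM in the same order (n = 5 each, SD). Its mean genotype difference on the log2 scale was −0.72 (SE 0.10, edgeR quasi-likelihood test, adjusted p = 0.00563). In batch 1 alone, with the replicate number as a block, and without K556R fasted 1_b1, K556R refed 1_b1 and wild type fasted 1_b2, edgeR called 0 genes in this contrast, so the Prox1 call was lost in each. A count per gene does not read the altered codon.

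Levels can be compared between genes only per length, so CPM was divided by the exon length of each gene in kilobases. This length joins the exons of all annotated transcripts of a gene and can exceed that of the mRNA present. How far the order of the genes depends on it was not tested. In wild-type refed livers Fdps was the most abundant mRNA of the arm, at 100.4 ± 17.5 CPM per kilobase (SD, n = 5). Pmvk at 47.2, Fdft1 at 41.7 and Acat2 at 37.7 CPM per kilobase followed, and their library ranges overlapped one another but not that of Fdps. Mvd at 23.9, Sqle at 22.5 and Idi1 at 18.3 CPM per kilobase formed the next step, again with overlapping ranges. Mvk at 4.90 CPM per kilobase lay below them, and no library of Mvk reached the lowest of Idi1 (5.42 against 13.3). In wild-type fasted livers the same quantity was 34.5 for Fdps, 16.5 for Acat2, 15.3 for Pmvk, 12.2 for Fdft1, 5.93 for Idi1, 2.95 for Sqle, 1.79 for Mvk and 1.59 for Mvd. The ranges of Mvk and Mvd overlapped there, whereas in refed livers Mvd stood above Mvk in every wild-type library (lowest Mvd 18.2, highest Mvk 5.42 CPM per kilobase). Hmgcs1 came last in every group, at 0.058 in wild-type fasted and 0.33 CPM per kilobase in wild-type refed livers. Its row held only 4 to 150 counts in a library, against 3953 to 20603 for Fdps, and whether this row holds all reads of the gene was not tested.

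**Figure D1:**
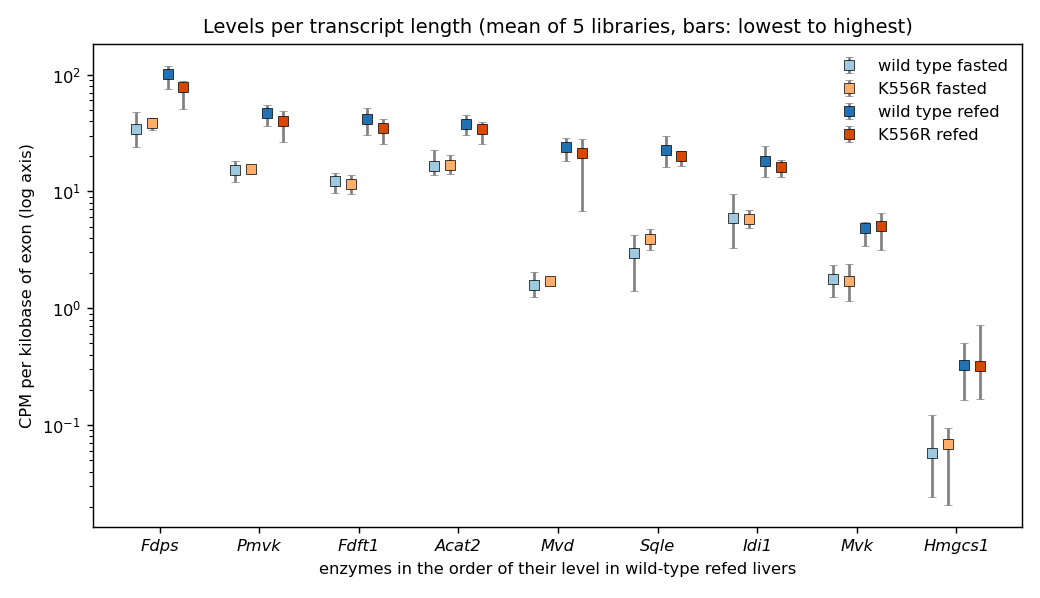
Level of each enzyme mRNA in CPM per kilobase of exon (log axis), as the mean of 5 libraries per group, with bars from the lowest to the highest library. Fdps stands highest and Hmgcs1 lowest in all 4 groups, and Mvd moves from the level of Mvk in fasted livers to that of Sqle in refed livers.

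The first comparison asked how the arm differs between fasted and refed livers of wild-type mice. All 9 mRNAs were higher after refeeding, and in each of the 9 every refed library lay above every fasted one. The increase was largest for Mvd (15.2-fold, 95% interval 9.80 to 23.7), followed by Sqle (7.59-fold, 5.22 to 11.0) and Hmgcs1 (5.33-fold, 2.57 to 11.1), and it was 2.32-fold to 3.40-fold in the other members. By the edgeR quasi-likelihood test, 20.9% of all genes tested were called higher and 24.2% lower, or 45.1% in either direction, against 9 of 9 members higher. The median log2 fold change was 1.66 over the members and −0.01 over all genes tested. In 15.88% of all genes tested every wild-type refed library lay above every fasted one.

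Some markers of liver cell types were also called after refeeding, against 45.1% of all genes tested in wild type and 39.9% in K556R livers. The shares of all genes called lower were 24.2% and 20.3%. Of 7 hepatocyte markers tested, 1 was called higher and 4 lower in wild type, and 4 lower in K556R livers. Their summed level was 105800 to 147200 CPM in wild-type fasted and 106100 to 113000 CPM in wild-type refed libraries. Of 6 endothelial markers, 3 in wild type and 2 in K556R were called lower, with sums of 69.96 to 117.6 CPM fasted and 79.28 to 90.66 CPM refed in wild type. None of 6 Kupffer cell markers was called, with estimates below 0 for all 6 in wild type and above 0 for all 6 in K556R. No marker of these lists was at 0 in a library. None of 6 stellate cell, 5 cholangiocyte and 4 lymphocyte markers tested was called in wild type. In K556R livers 1 stellate cell marker was called higher and none of the other 2 lists. The part of other cell types in the member levels was not tested, and in bulk tissue fewer cells of a type and less mRNA per cell cannot be told apart.

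Mvd makes the last step to isopentenyl diphosphate. In wild-type fasted libraries 1_b1, 2_b1, 3_b1, 4_b1 and 1_b2, in this order, it stood at 2.41, 2.33, 3.15, 3.09 and 3.79 CPM. In the wild-type refed libraries of the same numbers it stood at 37.8, 45.0, 52.9, 52.7 and 33.9 CPM. The highest fasted library was thus far below the lowest refed one, and the 2 libraries of the refed group nearest to it were 1_b2 and 1_b1. The log2 fold change was 3.93 (SE 0.30, edgeR, adjusted p = 3.12e-08), which ranked 7 among the 13894 genes tested.

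Sqle, a flavin-dependent and rate-controlling epoxidase, was measured at 7.73, 11.7, 23.3, 21.0 and 18.3 CPM in the wild-type fasted libraries in the same order. After refeeding it was 88.8, 128, 166, 148 and 92.9 CPM. Libraries 1_b1 and 2_b1 were the low ones of the fasted group, and 1_b1 and 1_b2 those of the refed group. The log2 fold change was 2.92 (SE 0.26, edgeR, adjusted p = 1.15e-07), rank 26 of all genes tested.

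Fdps, the branch point enzyme, was at 101, 101, 144, 201 and 178 CPM in wild-type fasted and at 380.5, 439, 498, 476 and 317 CPM in wild-type refed livers. Fasted 4_b1 and 1_b2 were high and 1_b1 and 2_b1 low within their group, and the refed libraries lay above all of them. Its log2 fold change was 1.55 (SE 0.19, edgeR, adjusted p = 2.73e-06). Fdft1, the squalene synthase at the next step, averaged 51.5 ± 8.35 CPM fasted and 176 ± 38.0 CPM refed (SD, n = 5 each), with a log2 fold change of 1.77 (SE 0.17).

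Of the kinases, Pmvk rose from 26.2 ± 4.22 to 80.9 ± 16.2 CPM and Mvk from 4.79 ± 1.16 to 13.1 ± 2.30 CPM (SD, n = 5 each). Their log2 fold changes were 1.63 (SE 0.16) and 1.45 (SE 0.22) by edgeR. Idi1 stood at 11.4, 11.8, 22.0, 25.1 and 33.6 CPM in wild-type fasted and at 50.2, 64.0, 86.0, 73.7 and 46.7 CPM in wild-type refed libraries. Library 1_b2 was the highest of the fasted and the lowest of the refed group, so these groups came close without overlapping. Acat2 had the smallest response of the 9 members, with a log2 fold change of 1.21 (SE 0.12, edgeR, adjusted p = 1.97e-07). It stood at 36.9, 35.01, 37.8, 43.0 and 57.5 CPM fasted and at 76.9, 99.4, 102, 114 and 86.8 CPM refed.

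Hmgcs1 was at 0.11 to 0.56 CPM in wild-type fasted and 0.75 to 2.34 CPM in wild-type refed libraries, and its log2 fold change of 2.42 carried the largest error (SE 0.50, edgeR, adjusted p = 0.000603). Within batches, the wild-type response had the same sign in all 9 members. In batch 2, where 1 fasted and 1 refed wild-type library were compared and the spread came from the 3 K556R refed libraries alone, Hmgcs1 (0.44, adjusted p = 0.579) and Mvk (0.55, adjusted p = 0.315) did not pass the edgeR test. The median over members was 1.92 in batch 1 and 0.84 in batch 2. Wild type fasted 1_b2, the highest of its group in 5 of the 9 members, lay nearest to the refed side of the first principal component among fasted libraries (−12.5).

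**Figure D2:**
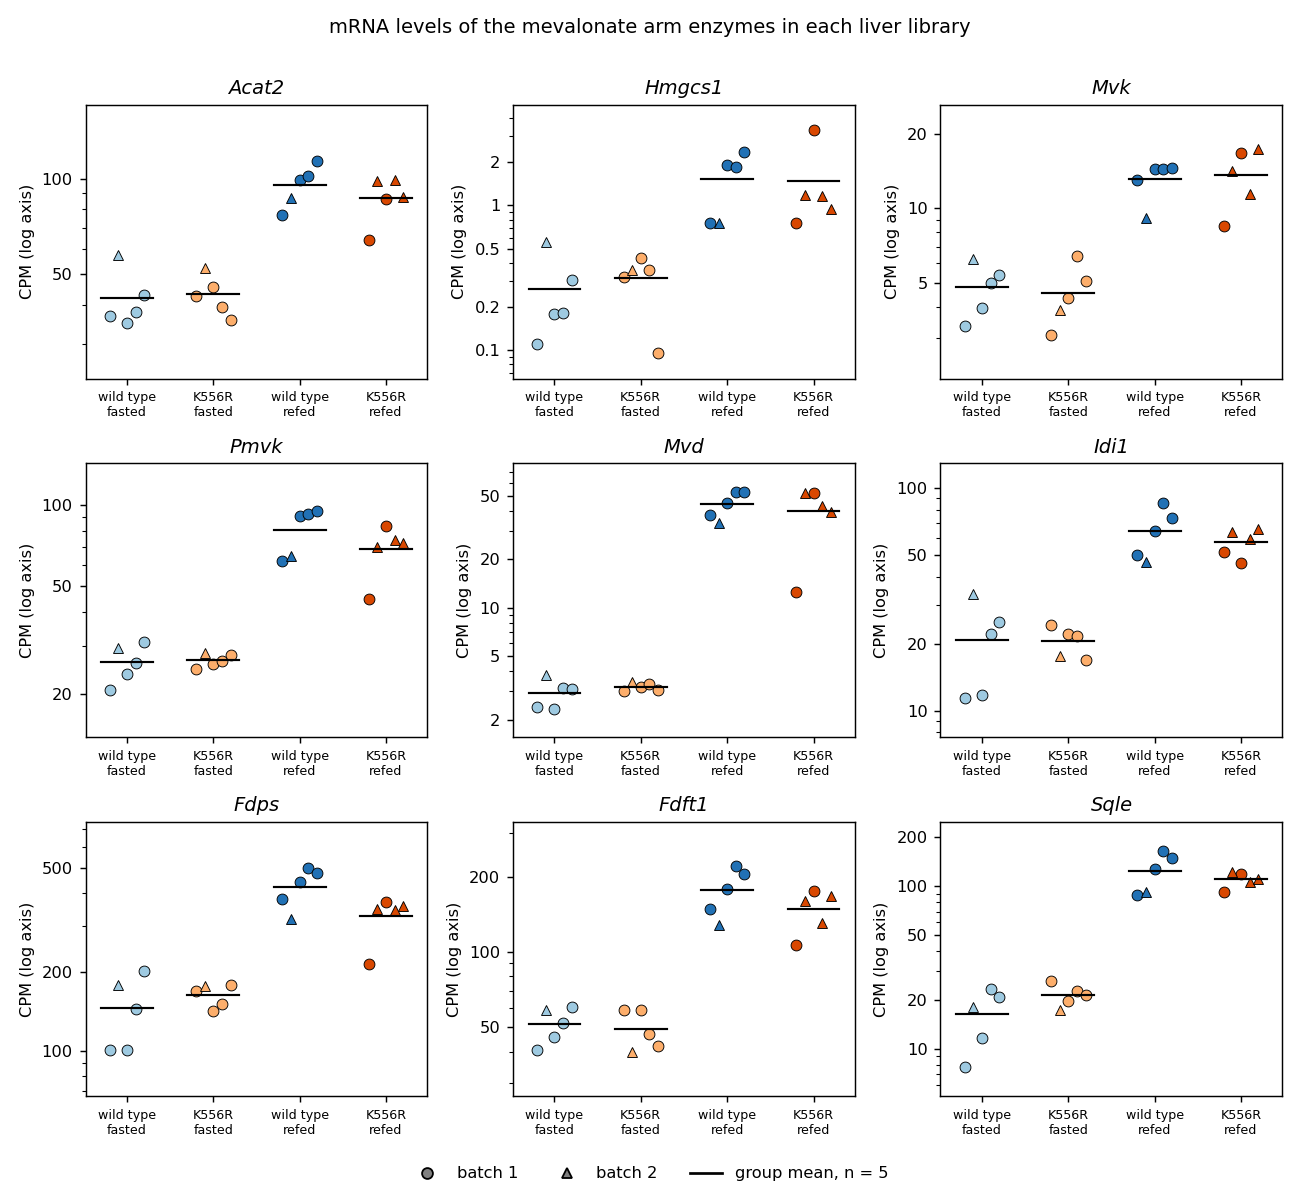
Level of each enzyme mRNA in CPM (log axis) in the 20 libraries, by group, with circles for batch 1, triangles for batch 2 and a line at the group mean (n = 5). In all 9 panels every refed library lies above every fasted library of the same genotype, and K556R refed 1_b1 is the low point of its group in 8 of them.

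The same comparison was made in K556R livers, which share no library with the wild-type one. Again 9 of 9 members were higher, against 19.6% of all genes tested called higher, 20.3% lower and 39.9% in either direction by edgeR. No refed library overlapped a fasted one in any member, which held in the upward direction for 12.79% of all genes tested. The median log2 fold change was 1.58 over the members and 0.01 over all genes tested. Mvd was again the largest, at 11.7-fold (95% interval 7.44 to 18.4), then Sqle at 5.30-fold (3.61 to 7.79) and Hmgcs1 at 4.93-fold (2.39 to 10.2). Acat2 at 1.86-fold and Fdps at 1.94-fold were the smallest.

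Per library, Mvd stood at 3.02, 3.18, 3.35, 3.08 and 3.42 CPM in K556R fasted libraries 1_b1, 2_b1, 3_b1, 4_b1 and 1_b2. In K556R refed libraries 1_b1, 2_b1, 1_b2, 2_b2 and 3_b2 it stood at 12.6, 52.1, 51.9, 43.3 and 39.4 CPM. Refed 1_b1 was thus far below the other 4 refed libraries, while still above all fasted ones. Without it and K556R fasted 1_b1, the log2 fold change of Mvd was 3.88 in place of 3.55, and its SE fell to 0.18 from 0.31. Fdps was at 169, 142, 151, 178 and 177 CPM in the K556R fasted libraries. In the refed ones it was at 215, 371, 347, 346 and 359 CPM, so the same library was low again. Its log2 fold change was 0.96 (SE 0.20, edgeR, adjusted p = 0.000779), and 1.13 without these 2 libraries.

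Sqle stood at 26.4, 19.7, 22.8, 21.5 and 17.4 CPM in K556R fasted and at 92.3, 120.0, 123, 106 and 111 CPM in K556R refed libraries. The groups were far apart, with a log2 fold change of 2.41 (SE 0.26, edgeR, adjusted p = 1.91e-06). Idi1 was at 24.3, 22.0, 21.6, 17.0 and 17.6 CPM fasted and at 51.5, 46.2, 63.8, 58.9 and 65.3 CPM refed. It is the 1 member in which 2_b1 and not 1_b1 was the lowest K556R refed library. Fasted levels of Idi1 spread less in K556R (17.0 to 24.3 CPM) than in wild-type livers (11.4 to 33.6 CPM), and this difference in spread was not tested.

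**Figure D3:**
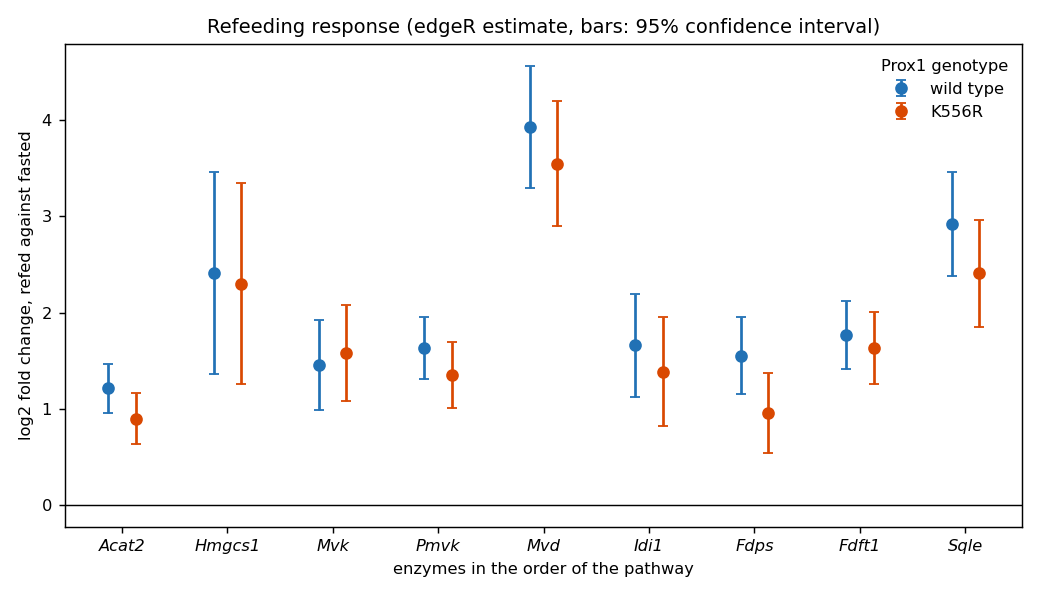
Log2 fold change of each enzyme mRNA, refed against fasted, in wild-type and K556R livers, as edgeR estimates with 95% confidence intervals, in pathway order. All intervals lie above 0, and Mvd, Sqle and Hmgcs1 have the largest estimates in both genotypes.

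The enzymes around the arm were read from lists of the same fits. Upstream, Acly, which makes cytosolic acetyl-CoA from citrate, was higher by 2.55 in wild type and 2.17 in K556R on the log2 scale. Acss2, which activates acetate, had values of 1.499 and 0.90. Slc25a1, the other gene of the acetyl-CoA supply list, had the smallest estimates, at 0.283 and 0.175. All 3 were called higher in wild type and 2 in K556R livers. The shares of all genes tested called higher were 20.9% in wild type and 19.6% in K556R livers, and those called lower 24.2% and 20.3%. Of the 11 enzymes from lanosterol to cholesterol, 9 were called higher in wild type and 7 in K556R, and none lower. Among them were Lss, the cyclase that takes the product of Sqle (2.04 and 1.77), Msmo1 (1.78 and 1.67), Sc5d (1.65 and 1.41) and Dhcr7 (1.45 and 1.18). The median over this list was 0.99 in wild type and 0.77 in K556R livers, below the medians of 1.66 and 1.58 for the mevalonate arm.

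The side branches that leave at isoprenoids did not share one direction. Of 14 genes tested there, 7 were called higher and 3 lower in wild type, and 5 higher and 3 lower in K556R livers. Their medians were 0.15 and 0.10. Among all genes tested, 20.9% were called higher and 24.2% lower in wild type, and 19.6% and 20.3% in K556R livers. Whether the list of side branches departs from these shares was not tested. Ggps1, the geranylgeranyl diphosphate synthase that uses the product of Fdps, was lower by edgeR (−0.60 and −0.58), as was Rabggtb, a subunit of Rab geranylgeranyl transferase (−0.63 and −0.70). Dhdds, of dolichol synthesis (0.43 and 0.57), and Pdss1, of ubiquinone side chain synthesis (0.84 and 0.74), were higher.

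Of the paralogs of the arm's enzymes, Acat1, the mitochondrial thiolase, had log2 fold changes of 0.03 and −0.14 that did not pass the test. Idi2, a paralog of Idi1, had 0 counts in every library.

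Among the genes that control the route, Insig1 was higher by 1.89 and 1.77 and Srebf1, which encodes the SREBP-1 factors of fatty acid synthesis, by 2.44 and 2.48 on the log2 scale. Srebf2 itself changed less: 0.45 in wild type, where it was called higher by edgeR, and 0.18 in K556R livers, where it was not. The difference between these estimates, −0.26 (SE 0.19), had an adjusted p of 1 by edgeR. Of 10 such genes, 5 were called higher and 2 lower in wild type, and 4 higher and 3 lower in K556R livers. Of 8 genes tested for turnover of the sterol enzymes and for AMP-activated kinase, none was called higher and 4 in wild type and 3 in K556R were called lower, among them Prkaa1 (−0.44 in both). Of all genes tested, 20.9% were called higher and 24.2% lower in wild type, and 19.6% and 20.3% in K556R livers. Whether either list departs from these shares was not tested.

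The second question was whether the K556R form of Prox1 changes these mRNAs. In fasted livers no member was called by edgeR, nor was any other gene (0% of 13894; the unadjusted p was below 0.05 in 1136). In this comparison 68 genes were called by DESeq2 and 2 by limma, with no member among them. The log2 differences, K556R against wild type, were small and of both signs, from −0.07 in Mvk to 0.39 in Sqle, with a median of 0.04. Their sign differed between the batches: all 9 lay above 0 in batch 1 (median 0.21) and all 9 below 0 in batch 2 (median −0.16), which holds 1 fasted library of each genotype. The batch 2 estimate farthest below 0 was that of Idi1 (−0.94). The spread in the batch 2 fit came from the 3 K556R refed libraries alone and does not measure that between fasted libraries. For Sqle the 95% interval ran from −0.12 to 0.91 (unadjusted p = 0.127, edgeR, adjusted p = 0.751), and its 5 K556R libraries, at 17.4 to 26.4 CPM, overlapped the wild-type ones at 7.73 to 23.3 CPM. The interval was narrowest for Acat2, from 0.866-fold to 1.23-fold, followed by Pmvk, from 0.814-fold to 1.27-fold. It was widest for Hmgcs1, from 0.492-fold to 2.57-fold, followed by Mvd, from 0.694-fold to 1.72-fold.

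In refed livers again no member and 0% of all genes tested were called by edgeR (the unadjusted p was below 0.05 in 693; 6 genes were called by DESeq2, none of them a member). The point estimates were below 0 in 7 of 9 members, with a median of −0.25 against 0.02 over all genes tested. The lowest unadjusted p-values were those of Acat2, with a log2 difference of −0.27 (95% interval −0.54 to −0.01, unadjusted p = 0.0444), and Fdps, with −0.42 (95% interval −0.84 to −0.00026, unadjusted p = 0.0499). Both had an edgeR adjusted p of 0.965. Acat2 was at 64.2, 86.6, 98.2, 98.9 and 87.8 CPM in K556R refed libraries 1_b1, 2_b1, 1_b2, 2_b2 and 3_b2, and all but 1_b1 lay inside the wild-type refed range of 76.9 to 114 CPM. In Fdps 4 of the 5 K556R refed libraries (346 to 371 CPM) lay inside the wild-type refed range of 317 to 498 CPM. No member was fully separated between genotypes in either feeding state. Of all genes tested 0.3671% lay wholly above and 0.547% wholly below in fasted, and 0.1943% and 0.4246% in refed K556R livers.

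The sign in refed livers differed between the batches. In batch 1 the estimates were below 0 in 8 of 9 members, with a median of −0.41. In batch 2 they were above 0 in all 9, with a median of 0.28 (Fdps 0.14, Mvd 0.40, Mvk 0.64). Only 1 wild-type refed library stands behind the batch 2 values, and only 2 K556R refed libraries behind those of batch 1. One of these 2, K556R refed 1_b1, was the lowest of its group in 8 of 9 members, and 1 wild-type library, refed 1_b2, was the lowest of its group in 6. With K556R fasted 1_b1 and refed 1_b1 both left out, the median was −0.05, with 6 of 9 members below 0 and Mvd at 0.12. With K556R refed 2_b1 or wild type refed 1_b2 left out in turn, all 9 members were below 0, and the medians were −0.36 and −0.41.

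K556R refed 1_b1 also stood apart in markers of other cells. The summed level of 6 proliferation genes was 45.3 CPM in it, against 6.06 to 9.24 CPM in the other K556R refed libraries and 6.47 to 9.19 CPM in wild-type refed ones. The 4 lymphocyte markers tested summed to 13.7 CPM, against 4.07 to 6.66 CPM in wild-type refed libraries, and the 6 Kupffer cell markers to 149 CPM, against 59.3 to 98.3 CPM. None of these markers was at 0 in that library. In K556R fasted 1_b1 the sums were 16.9, 9.998 and 95.3 CPM, where wild-type fasted libraries had 7.88 to 9.90, 2.73 to 8.66 and 40.01 to 217 CPM. It was the highest of its group in 2 members and the lowest in 3 (Mvk, Pmvk and Mvd).

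**Figure D4:**
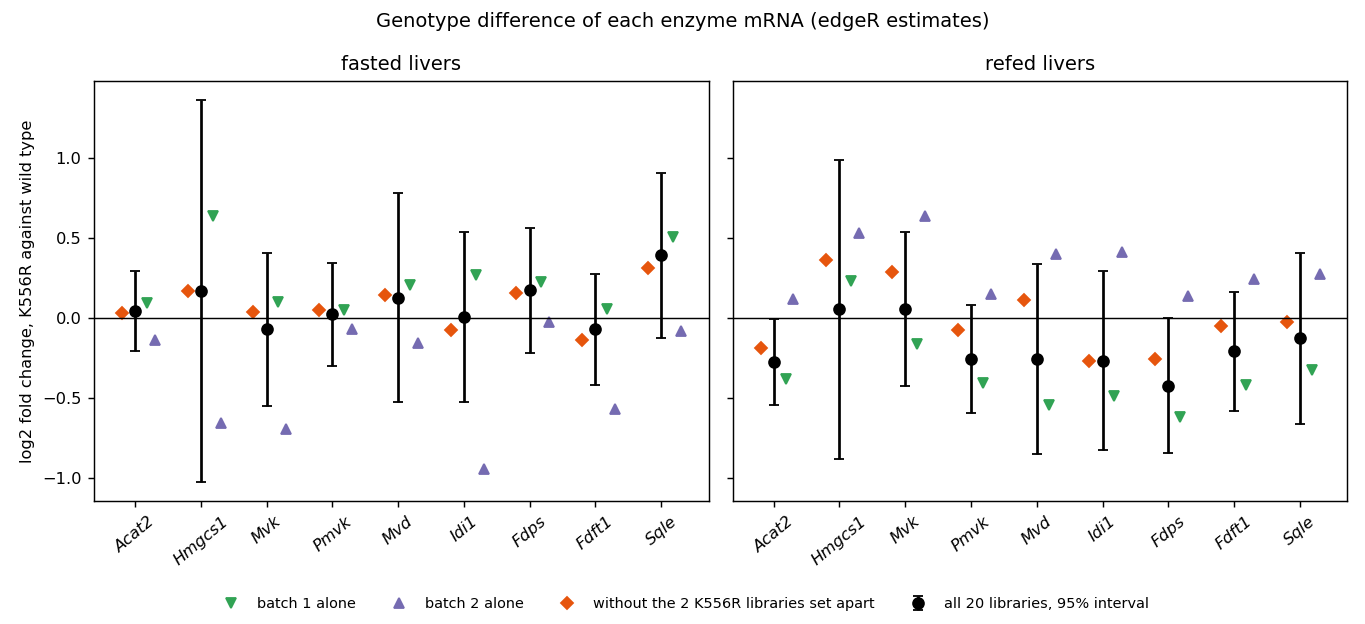
Log2 difference, K556R against wild type, of each enzyme mRNA in fasted and refed livers: edgeR estimates with 95% intervals from all 20 libraries, beside the estimates in each batch alone and without K556R fasted 1_b1 and refed 1_b1. In refed livers batch 2 estimates lie above 0 in all 9 members and batch 1 estimates below 0 in 8.

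Averaged over both feeding states, the log2 genotype differences ran from −0.14 in Fdft1 to 0.13 in Sqle, and no member was among the 4 genes called by edgeR (0.0288% of those tested, with 0.0072% higher and 0.0216% lower). DESeq2 called 41 genes there, none a member. The interaction, which asks whether the refeeding response differs between genotypes, gave 0 calls among all 13894 genes by edgeR (the unadjusted p was below 0.05 in 553; 1 gene was called by DESeq2, not a member). Its estimates were below 0 in 8 of 9 members, meaning a smaller rise in K556R, with a median of −0.28 against 0.02 over all genes tested. Fdps had the lowest p of the members, with −0.60 (SE 0.28, unadjusted p = 0.0436, edgeR, adjusted p = 1), and Sqle was at −0.52 (SE 0.36). In batch 1 alone all 9 estimates were below 0 (median −0.48), and in batch 2 alone all 9 were above 0 (median 0.55). In batch 2 Idi1 was at 1.36, with the opposite sign to batch 1 (−0.76). The spread in batch 2 came from the 3 K556R refed libraries alone, with 1 library in each of the other groups. Without K556R fasted 1_b1 and refed 1_b1 the median was −0.13, and Fdps was at −0.41.

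Whether the members also vary together within groups was examined on log2 CPM after removal of group and batch means. All 36 pairs of members had a positive Pearson correlation over the 20 libraries, with a median r of 0.70 (0.39 to 0.88). By a permutation test, adjusted over 63 relations, 33 of the 36 pairs passed 0.05 by Pearson's r and 32 by Spearman's rho. The permutation treated the 20 values as exchangeable, although group and batch means had been removed from them. Its p-values, here and for the genes below, can therefore be too small. The closest pair was Acat2 and Hmgcs1, the first steps of the arm (r = 0.88, adjusted permutation p = 0.000157, rho = 0.93), followed by Pmvk and Fdps (r = 0.87), Idi1 and Sqle (r = 0.85) and Pmvk and Mvd (r = 0.85). With the 2 libraries farthest from the median of the first gene left out, these 4 values were 0.87, 0.81, 0.80 and 0.74. The lowest of all pairs was then 0.208 (Acat2 and Mvk). Values for Hmgcs1 rest on only 4 to 150 counts in a library. The pairs that did not pass by Pearson's r were Acat2 and Mvk (r = 0.46, adjusted permutation p = 0.0673), Hmgcs1 and Mvk (r = 0.49, 0.0511) and Mvd and Idi1 (r = 0.39, 0.126). Within batch 1 all 36 pairs stayed positive, with a median r of 0.68 and 22 pairs passing, and batch 2 held too few libraries for such a value. The median r of a member with all other genes tested lay between −0.02 and 0.02. Libraries share a depth and a tissue sample in all genes, so these values describe libraries and not a mechanism.

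Srebf2 had r from −0.23 (Idi1) to 0.55 (Mvk and Mvd). The values for Mvk, Mvd and Pmvk passed by Pearson's r (adjusted permutation p = 0.0258, 0.0250 and 0.0385), but fell to 0.29, 0.11 and 0.19 without the 2 farthest libraries, among them K556R refed 1_b1, so they rested on those libraries. Insig1 was positive with all 9 members, from 0.22 (Acat2) to 0.54 (Mvd), and only Mvd passed (adjusted permutation p = 0.0250, rho adjusted p = 0.0275, r without the 2 farthest 0.54, and 0.27 without K556R fasted 1_b1 and refed 1_b1). Prox1 was negative with all 9 members, from −0.01 (Mvk) to −0.37 (Mvd), and none passed (lowest adjusted permutation p = 0.148). The 3 sets of relations use the same member values and are not independent.

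**Figure D5:**
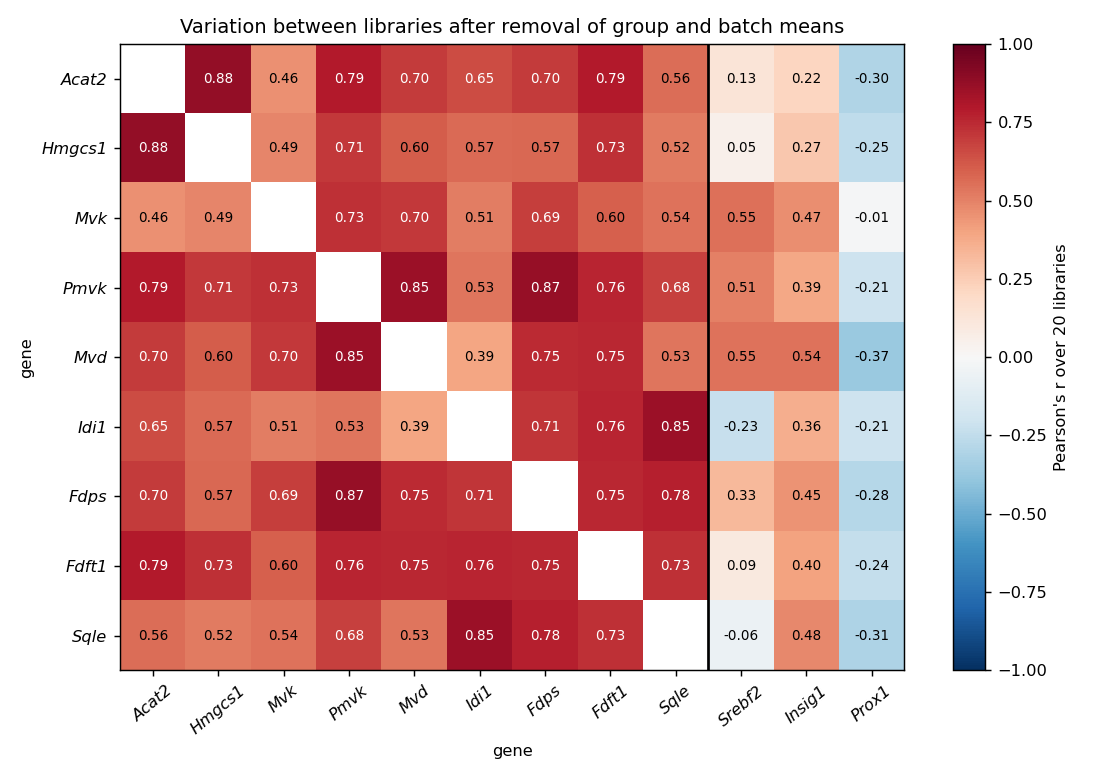
Pearson's r between enzyme mRNAs, and of each with Srebf2, Insig1 and Prox1, over 20 libraries after removal of group and batch means. All 36 member pairs are positive, from 0.39 to 0.88, and all 9 values for Prox1 are negative.

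The genes most like the mean of the members over the 20 libraries, on the same residual scale and among 8822 ranked, were Lss (r = 0.94), Nsdhl (0.92), Dhcr7 (0.88), Mmab (0.87), Ccdc17 (0.87) and Pstpip2 (0.85). The first 3 are enzymes of the sterol steps that follow Sqle. The other 3 were called higher after refeeding in both genotypes, Mmab by 1.61 and 1.55, Pstpip2 by 1.57 and 1.43 and Ccdc17 by 0.58 and 0.64 on the log2 scale. Mmab, which encodes an adenosyltransferase of cobalamin metabolism, lies head to head with Mvk on chromosome 5, with 208 bases between the genes (GENCODE M21, GRCm38). Mvk rose by 1.45 and 1.58, and after removal of group and batch means the pair had r = 0.81.

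The members lie on 7 chromosomes. Only Pmvk and Fdps, both on chromosome 3, at 89454541 to 89469013 on the plus strand and 89093588 to 89101959 on the minus strand, and Hmgcs1 and Idi1, both on chromosome 13, share one. Acat2 (chromosome 17, 12942890 to 12960747, minus strand) has the near-identical gene Acat3 2289 bases away, which rose by 0.58 and 0.67, so reads that fit both make the Acat2 count uncertain. The 3′ end of Fdft1 (chromosome 14, 63145150 to 63179578, minus strand) shares 774 bases with Ctsb on the other strand. The library strand is not stated, and the part of Ctsb reads in the Fdft1 count was not tested. Ctsb, at 450 ± 19.7 CPM in wild-type fasted and 466 ± 17.1 CPM in wild-type refed livers (SD, n = 5 each), had refeeding differences of 0.05 and 0.06 that did not pass the edgeR test.

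Because the members rose together, their promoters were read from RefSeq (GRCm38.p6), as windows from 250 bases before to 50 bases after a start site. Windows existed for 6 of the 9 members, and Fdps, Fdft1 and Sqle were not matched. The box CCAAT, read on both strands (ATTGG on the other) and known as the site of NF-Y, a partner of SREBP, was present in 5 of the 7 windows of these genes (Pmvk has 2), against 37.4% of 32851 windows in the table. It was also present in 10 of 12 windows of the lanosterol-to-cholesterol list. The GC box GGGCGG was present in 5 of the 7 as well, against 35.7% of windows. In Idi1 the CCAAT boxes lie 45 and 14 bases and the GC box 69 bases before the RefSeq start site. All of these lie inside the gene as annotated in GENCODE M21. The sterol regulatory element of 10 bases was found exactly in none of the 7 (0.0913% of windows). With up to 1 mismatch it was found in Hmgcs1 alone (1.95% of windows), as CTCACCCCAC, A1C counted from the first base of the element. The core TCACNCCAC, which overlaps it, was in Hmgcs1 alone as well (1.24% of windows), and the E-box CACGTG in none (7.15% of windows). These are matches of letters and not measured sites.

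Shown here are the stretches before the start of Hmgcs1, with the one near match to the sterol element, of Mvd, the member with the largest response, of Mvk, the whole stretch between it and Mmab, and of Acat2, the member with the smallest response and no CCAAT box. Capitals mark CCAAT or ATTGG and, in Hmgcs1, the near match.
Hmgcs1 (chr13:119690101-119690350, plus strand): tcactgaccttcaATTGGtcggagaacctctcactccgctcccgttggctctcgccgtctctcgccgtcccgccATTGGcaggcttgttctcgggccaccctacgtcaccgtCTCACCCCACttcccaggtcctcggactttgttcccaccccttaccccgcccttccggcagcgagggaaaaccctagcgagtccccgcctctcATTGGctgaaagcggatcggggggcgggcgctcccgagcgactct
Mvd (chr8:122443423-122443672, minus strand): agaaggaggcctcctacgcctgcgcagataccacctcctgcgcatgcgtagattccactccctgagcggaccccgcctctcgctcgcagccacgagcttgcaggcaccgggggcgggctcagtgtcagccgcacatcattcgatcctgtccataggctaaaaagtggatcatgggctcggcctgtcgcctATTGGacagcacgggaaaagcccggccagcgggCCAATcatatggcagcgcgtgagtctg
Mvk (chr5:114444061-114444268, plus strand): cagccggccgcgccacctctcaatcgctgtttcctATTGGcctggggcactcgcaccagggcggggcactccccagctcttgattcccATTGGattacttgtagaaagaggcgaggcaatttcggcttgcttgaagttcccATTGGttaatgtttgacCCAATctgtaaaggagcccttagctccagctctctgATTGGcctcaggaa
Acat2 (chr17:12960748-12960975, minus strand): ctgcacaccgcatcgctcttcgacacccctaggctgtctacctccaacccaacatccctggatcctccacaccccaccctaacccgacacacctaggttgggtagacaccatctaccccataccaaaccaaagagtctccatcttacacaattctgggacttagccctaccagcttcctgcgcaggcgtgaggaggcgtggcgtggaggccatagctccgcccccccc
The near match in Hmgcs1 began 138 bases before the start site, with CCAAT boxes at 237, 176 and 45 bases before it. Mvd carried 2 boxes, at 60 and 27 bases before its start, and Mvk 5 in its 208 bases. In wild type the refeeding fold was 5.33 for Hmgcs1, 15.2 for Mvd, 2.74 for Mvk and 2.32 for Acat2. For the other members with windows it was 3.095 (Pmvk) and 3.16 (Idi1). A link between boxes and response was not tested.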

How the data were processed

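Read counts per gene are as deposited by the authors, whole numbers and not normalized. Build mm10 and the tools STAR, STAR-Fusion, TopHat, HTSeq, edgeR and DESeq2 are named per the submitters' processing notes. Their roles, their versions, the annotation and any use of strand were not given in the sources used here. Per the labels' protocols, mRNA was captured on poly-T beads and primed with random hexamers. Every column of the table matched a sample.

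The test was the robust quasi-likelihood F test of edgeR 4.0.16 in R 4.3.3. filterByExpr (minimum count 10, minimum total 15) kept 13894 genes, scaling was TMM, and all 20 libraries entered 1 fit with group and batch as terms. The 6 contrasts were tested, with Benjamini-Hochberg adjustment over all genes at 0.05. Log2 CPM for correlations used a prior count of 2, with 100000 permutations. The fit was tested on simulated data for the 2 refeeding contrasts only. The simulated data held no batch or genotype difference, so the genotype and interaction contrasts were not checked in this way. Exon lengths and positions are from GENCODE M21 (GRCm38). The members and lists were chosen with earlier results of these data known. In each contrast all members are named, up to 4 genes with the lowest p of other lists, the 6 genes most correlated with the member mean, and Srebf2, Srebf1, Insig1, Prox1 and paralogs of members, of which 1 is not reported here. Acat3 and Ctsb were added as neighbours after values were seen. The alternatives covered scaling (RLE, upper quartile), tools (limma 3.58.1 with quality weights, DESeq2 1.42.0), filters, batch (no term, or 1 batch at a time), the replicate block, a fit that was not robust, a fit of the compared groups, and left-out libraries.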

Additional observations from a re-analysis of the deposited data

Results flagged for a closer look

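In groups of 5 libraries, a level was marked where the gap from the highest or lowest library to the next exceeded 0.710 of the group's range. Chance marks about 1 in 20 groups, and 6 of the 76 groups tested, over 19 genes, were marked. Among members, Hmgcs1 in K556R refed 2_b1 was at 3.29 CPM, with the next library at 1.19. Mvk in wild type refed 1_b2 was at 9.12 CPM, with the next at 13.1. Fdps in K556R refed 1_b1 was at 215 CPM, with the next at 346. Among the genes beside them, Acat1 in wild type fasted 4_b1 was at 520.0 CPM (next 466), Mmab in wild type fasted 1_b2 at 16.7 CPM (next 12.8) and Ctsb in wild type fasted 2_b1 at 484 CPM (next 447). The part of these single libraries in the refed genotype difference is given beside that difference, and no difference of the response between genotypes passed the edgeR test over all 20 libraries.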

How the results depend on the processing

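The 9 members stayed called higher after refeeding in both genotypes under every alternative run, except in batch 2 alone, where Hmgcs1 and Mvk lost the call in wild type, and the batch 2 spread came from 3 libraries. Outside batch 2 alone, no genotype or interaction call of a member arose. In batch 2 alone Idi1 was at −0.94 in fasted livers and at 1.36 in the interaction. Only K556R refed has more than 1 library there, so that spread does not cover the fasted libraries. Repeat numbers were not shown to pair libraries: of 24 same-numbered pairs 4 had correlated deviations over 0.1 (−0.37 to 0.65), and with the replicate block 9 members in each refeeding contrast and 0 in the others were called. Counts of all genes called moved by over 1.5 times in batch 2 alone (1144 and 2702 for refeeding in wild type and K556R; 220, 12, 156 and 21 for the fasted, refed and mean genotype differences and the interaction). DESeq2 gave 68, 6, 41 and 1 for the latter 4. Against 0, the fasted count was 2 with limma, 1 without K556R fasted 1_b1 and refed 1_b1 and 0 to 2 with single libraries left out, and the refed count was 3 when only the groups compared were fitted and 0 to 1 with single libraries left out. Against 4, the mean count was 2 without a batch term, 0 in batch 1 alone, with the replicate block and without 3 libraries, and 13 without K556R fasted 2_b1. Where the sign of a member value changed, the values were as follows. In batch 1 alone, the fasted genotype difference was 0.10 (Mvk) and 0.057 (Fdft1) and the refed genotype difference was −0.16 (Mvk). There the interaction was −0.27 (Mvk). In batch 2 alone, the fasted genotype difference was −0.14 (Acat2), −0.65 (Hmgcs1), −0.070 (Pmvk), −0.16 (Mvd), −0.94 (Idi1), −0.021 (Fdps) and −0.078 (Sqle) and the refed genotype difference was 0.12 (Acat2), 0.15 (Pmvk), 0.40 (Mvd), 0.42 (Idi1), 0.14 (Fdps), 0.24 (Fdft1) and 0.28 (Sqle). There the mean genotype difference was −0.062 (Hmgcs1), 0.040 (Pmvk), 0.12 (Mvd) and 0.058 (Fdps) and the interaction was 0.26 (Acat2), 1.19 (Hmgcs1), 0.22 (Pmvk), 0.55 (Mvd), 1.36 (Idi1), 0.16 (Fdps), 0.81 (Fdft1) and 0.36 (Sqle). With DESeq2, the refed genotype difference was −0.014 (Hmgcs1). With limma, the fasted genotype difference was 0.067 (Mvk) and the refed genotype difference was 0.014 (Mvd). There the mean genotype difference was 0.14 (Mvk), 0.11 (Mvd) and 0.038 (Idi1). Without a batch term, the fasted genotype difference was −0.023 (Idi1) and the refed genotype difference was −0.052 (Hmgcs1). Without a filter, the fasted genotype difference was −0.0030 (Idi1). With the replicate block, the refed genotype difference was 0.066 (Sqle) and the mean genotype difference was 0.0018 (Mvk). With upper-quartile scaling, the mean genotype difference was 0.0047 (Mvk). Without K556R fasted 1_b1 and refed 1_b1, the fasted genotype difference was 0.036 (Mvk) and −0.075 (Idi1) and the refed genotype difference was 0.12 (Mvd). There the mean genotype difference was 0.16 (Mvk) and 0.13 (Mvd) and the interaction was 0.19 (Hmgcs1) and 0.085 (Fdft1). Without these and wild type fasted 1_b2, the fasted genotype difference was 0.27 (Mvk) and 0.0055 (Fdft1) and the refed genotype difference was 0.21 (Mvd), 0.051 (Fdft1) and 0.060 (Sqle). There the mean genotype difference was 0.017 (Acat2), 0.35 (Mvk), 0.068 (Pmvk), 0.26 (Mvd), 0.063 (Idi1), 0.056 (Fdps) and 0.028 (Fdft1) and the interaction was 0.046 (Fdft1). With each library left out in turn, the fasted genotype difference ranged from −0.00037 to 0.13 (Acat2), −0.070 to 0.87 (Hmgcs1), −0.23 to 0.081 (Mvk), −0.049 to 0.10 (Pmvk), −0.15 to 0.24 (Idi1) and −0.15 to 0.027 (Fdft1). Likewise the refed genotype difference ranged from −0.77 to 0.35 (Hmgcs1), −0.15 to 0.27 (Mvk) and −0.62 to 0.11 (Mvd). Likewise the mean genotype difference ranged from −0.28 to 0.55 (Hmgcs1), −0.10 to 0.11 (Mvk), −0.25 to 0.11 (Mvd) and −0.24 to 0.052 (Idi1). Likewise the interaction ranged from −0.99 to 0.19 (Hmgcs1), −0.093 to 0.35 (Mvk) and −0.30 to 0.037 (Fdft1). The cause of these reversals was not tested; all are of member values that passed no test over all 20 libraries. Correlated pairs passing were 22 in batch 1, 32 without the 2 libraries set apart and 31 with batch kept, against 33. An exact sterol element was in 0 member promoters and 1 with a mismatch allowed. Low counts limit Hmgcs1.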
